A study of Mus musculus with 6 samples.

Results

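The 41 genes described here encode proteins of the complement, coagulation and plasminogen systems. They were chosen by name from a written list and found by their symbols in the deposited tables, where all 41 were present among 55039 genes. Epididymal white adipose tissue (eWAT), a visceral fat depot that lies beside the epididymis, was sequenced from 6 male C57BL/6 mice, 6 to 7 weeks old when assigned to groups. The 3 CAC mice (cancer-associated cachexia) carried subcutaneous tumors of Lewis lung carcinoma (LLC) cells in the lower back, and the 3 CONT mice had been injected with phosphate-buffered saline (PBS) alone. Tissue was taken 28 days after injection, 1 library per mouse. The tumor of the CAC mice comes from a single transplanted cell line. The comparison asks how the depot's own messages for these blood-borne defence systems differed between tumor-bearing and control mice.

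Complement is a cascade of plasma proteins that marks cells and debris for removal. The classical pathway starts when C1q binds a target and activates the proteases C1r and C1s, which cleave C4 and C2, while the lectin pathway uses collectins and MASP proteases to the same end. Both lead to cleavage of C3, the alternative pathway amplifies it, and the terminal components form a pore in membranes. Coagulation is started by tissue factor with factor VII and ends in a fibrin clot, and plasmin, made from plasminogen by its activators, dissolves that clot. The liver secretes most of these proteins into blood, whereas macrophages are a main source of C1q and adipocytes are known to make C3 and factor D.

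Library size and the levels of marker genes differed between the mice. The libraries held 15713794 to 25926425 counts, so 1 CPM (a count scaled to library size with edgeR's TMM factors) stood for 11.2 to 26.5 reads. In CONT replicate 1, 30.2% of counts came from the mitochondrial genome, against 3.89% to 5.04% in the other 5 libraries. The sum of 10 adipocyte markers was high in every library, at 22595 to 54746 CPM in CONT and 35714 to 47194 CPM in CAC. Of these markers, 5 were fitted higher in CAC and 5 lower, and single markers could depart from the sum. Lep (leptin) was at 697, 409 and 414 CPM in CONT replicates 1 to 3. It was at 512, 3.996 and 0.415 CPM in CAC replicates 1 to 3. Markers of the epididymis summed to 12584 CPM in CONT replicate 3, 203.8 CPM in CONT replicate 1 and at most 3.59 CPM elsewhere. Hepatocyte markers summed to 107 CPM in CAC replicate 3 and to 5.005 to 36.0 CPM in the other libraries. Neutrophil markers were apart between the groups, at 5.62 to 62.2 CPM in CONT and 173 to 1156 CPM in CAC. In a bulk sample, fewer cells of a type and less RNA per cell cannot be told apart.

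**Figure D1:**
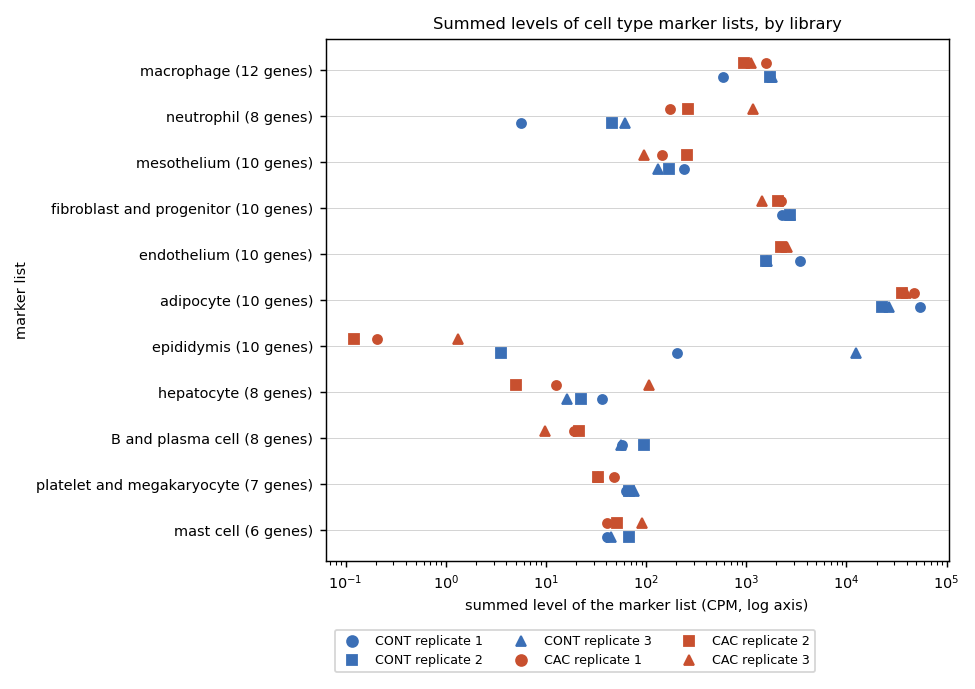
Summed level (x axis, CPM, log scale) of each marker list (y axis, with its number of genes) in every library. Blue symbols are CONT and red symbols are CAC, with the replicate given by the symbol. The 3 CAC libraries lie above the 3 CONT libraries for the neutrophil list. They lie below them for the B and plasma cell, platelet and megakaryocyte, fibroblast and progenitor, and epididymis lists. The other lists, among them macrophage and adipocyte, overlap.

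None of the 39 members that passed edgeR's filter on low counts had an adjusted p under 0.05, and neither did any of the 17296 genes tested, 2294 of which (13.3%) had an unadjusted p under 0.05. The lowest adjusted p of a member was 0.226, for Plaur. Among the members, 4 of 39 (10.3%) had an unadjusted p under 0.05: Plaur and Masp1 were fitted higher in CAC (6.31% of all genes), and Tfpi2 and C1qa lower (6.95%). The libraries of the groups did not overlap in 5 of 39 members (12.8%), with Plaur, C4b and F7 higher in CAC and Tfpi2 and Procr lower, whereas 22.5% of all genes tested did not overlap (11.8% higher and 10.7% lower). In this fit both shares of members were below those of all genes, but the order depended on the tool, the filter and the libraries. For non-overlap it turned without CAC replicate 1 or CONT replicate 1. For the unadjusted p, voom with sample quality weights gave 21 of 39 members beside 4884 of 17296 genes, and a fit with no filter on low counts gave 7 of 41 members beside 2608 of 34214 genes. By fitted direction, 11 members were higher and 28 lower (median log2 fold change -0.23), and over all genes tested 7943 were higher and 9353 lower (median -0.06). DESeq2, an alternative tool, gave 2 members an adjusted p under 0.05, Plaur and Tfpi2, where it called 4.97% of 18444 genes, and voom gave 4 (C1qa, C1qc, Cfp and Tfpi2), where it called 5.51% of genes.

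**Figure D2:**
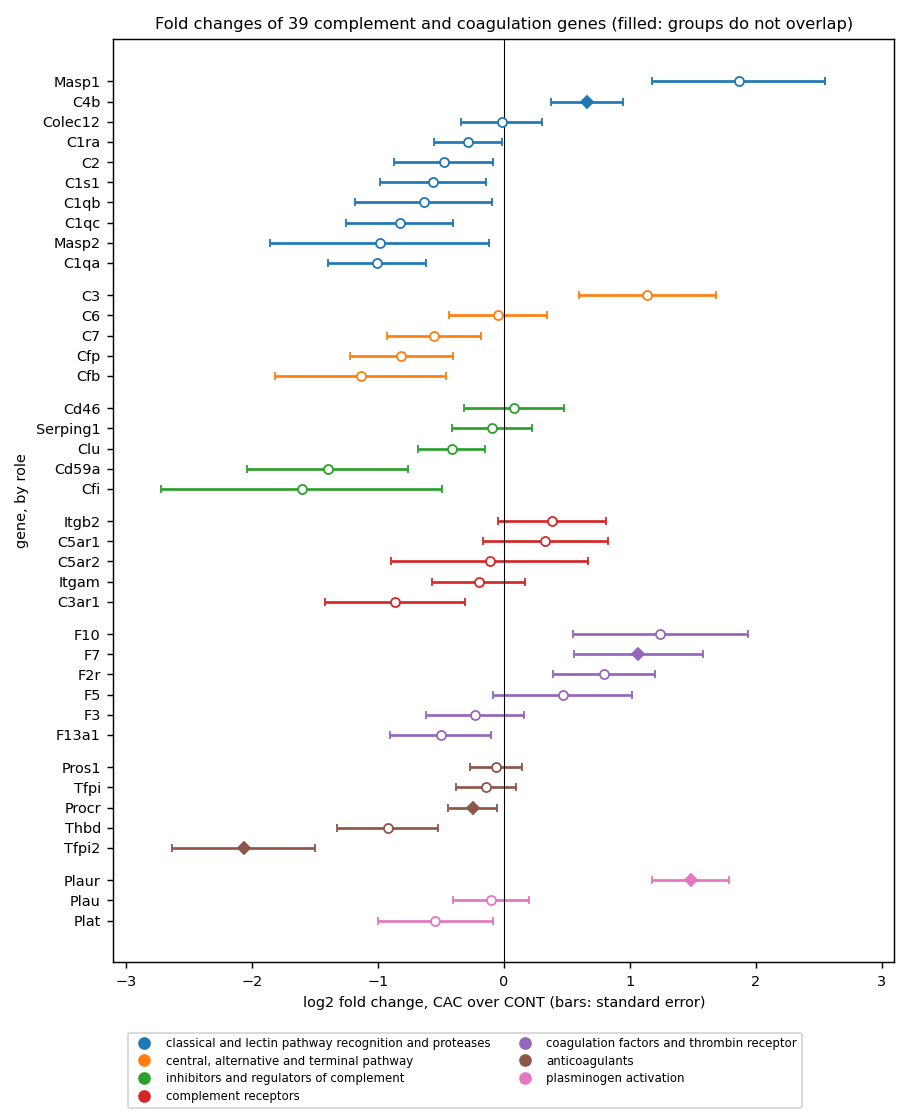
Log2 fold change of CAC over CONT (x axis) with its standard error for the 39 members tested (y axis), ordered within 7 groups of role by color. Filled diamonds mark the 5 members whose groups did not overlap. Plaur and Masp1 lie farthest to the right and Tfpi2 farthest to the left, at 1.48, 1.86 and -2.06.

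The promoters of Plaur, Tfpi2 and C3 are shown because the first 2 had the smallest unadjusted p among the members and C3 had the highest level. Each window runs from 250 bases before to 50 bases after the transcript start (RefSeq, GRCm38.p6), 5′ to 3′ on the gene's strand. Capitals mark matches of motifs bound by factors of the inflammatory response, which were chosen after the members' values had been seen: AP-1 (TGANTCA) and C/EBP (TTGCNNAA), on either strand. The windows lie at chr7:24462233-24462532 (plus strand) for Plaur, chr6:3968326-3968625 (minus strand) for Tfpi2 and chr17:57228087-57228386 (minus strand) for C3.
Plaur: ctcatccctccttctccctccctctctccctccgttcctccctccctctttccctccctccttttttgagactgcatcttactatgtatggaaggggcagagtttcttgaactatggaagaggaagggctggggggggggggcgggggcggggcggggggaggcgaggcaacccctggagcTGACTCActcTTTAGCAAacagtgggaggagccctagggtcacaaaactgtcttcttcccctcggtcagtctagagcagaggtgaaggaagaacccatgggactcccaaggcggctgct
Tfpi2: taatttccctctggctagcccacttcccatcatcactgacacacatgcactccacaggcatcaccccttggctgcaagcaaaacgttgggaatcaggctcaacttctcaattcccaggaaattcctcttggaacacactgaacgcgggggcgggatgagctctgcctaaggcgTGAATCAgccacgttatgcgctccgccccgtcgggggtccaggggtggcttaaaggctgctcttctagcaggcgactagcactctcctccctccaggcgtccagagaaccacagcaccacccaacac
C3: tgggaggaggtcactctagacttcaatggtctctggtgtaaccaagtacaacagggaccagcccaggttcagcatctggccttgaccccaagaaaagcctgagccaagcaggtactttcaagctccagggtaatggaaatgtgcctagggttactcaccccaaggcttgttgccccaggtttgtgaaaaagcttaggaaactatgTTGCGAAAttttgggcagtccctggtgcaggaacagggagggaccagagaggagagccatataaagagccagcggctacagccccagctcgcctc
The Plaur window held AP-1 letters at -69 to -63 and C/EBP letters at -59 to -52 from the start. The Tfpi2 window held AP-1 letters at -77 to -71, and the other 2 Tfpi2 windows in the reference, which lie at the annotated 5′ end of the gene, held no match of the 4 motifs searched. The C3 window held C/EBP letters at -45 to -38. Of the 27 members with a window in the reference, 6 (22.2%) held AP-1 letters (C3ar1, F2r, F3, Plaur, Procr and Tfpi2), against 8.97% of 27025 genes. C/EBP letters were in the windows of 6 members (22.2%; C1ra, C1s1, C3, C5ar2, Plaur and Procr), against 12.2% of genes. STAT letters (TTCNNNGAA) were in those of 4 members (14.8%; C1ra, C7, Masp2 and Pros1), against 9.55% of genes, and the NF-kappaB motif in that of 1 (3.7%; C1qc), also against 9.55%. The windows with AP-1 letters belong to genes fitted higher (Plaur, F2r) and lower (Tfpi2, Procr, C3ar1, F3) in CAC, and a match of letters is no evidence of binding.

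Levels between genes are compared in FPKM, which is scaled to gene length. C3, the component on which all 3 pathways meet, was the most abundant member, at 250 ± 129 FPKM in CONT and 560 ± 209 FPKM in CAC (mean ± SD, n = 3 each, as for all such values). C1qa followed at 197 ± 58.2 and 99.9 ± 44.6 FPKM, C1qb at 146 ± 76.2 and 95.7 ± 48.6, and C4b at 76.4 ± 17.2 and 123 ± 18.3. Serping1, C1qc, Cd59a and C1s1 completed the 8 most abundant. The spread of C3 in CONT reached down to CONT replicate 1, so that neighbours in this order do not all differ beyond their spread: C3 and C1qa overlapped in CONT. At the low end, F7, Tfpi2, F5, C5ar2, Cd46 and Masp2 had mean FPKM of 1.16 or less in each group, and Mbl2 and A2m were near 0.

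**Figure D3:**
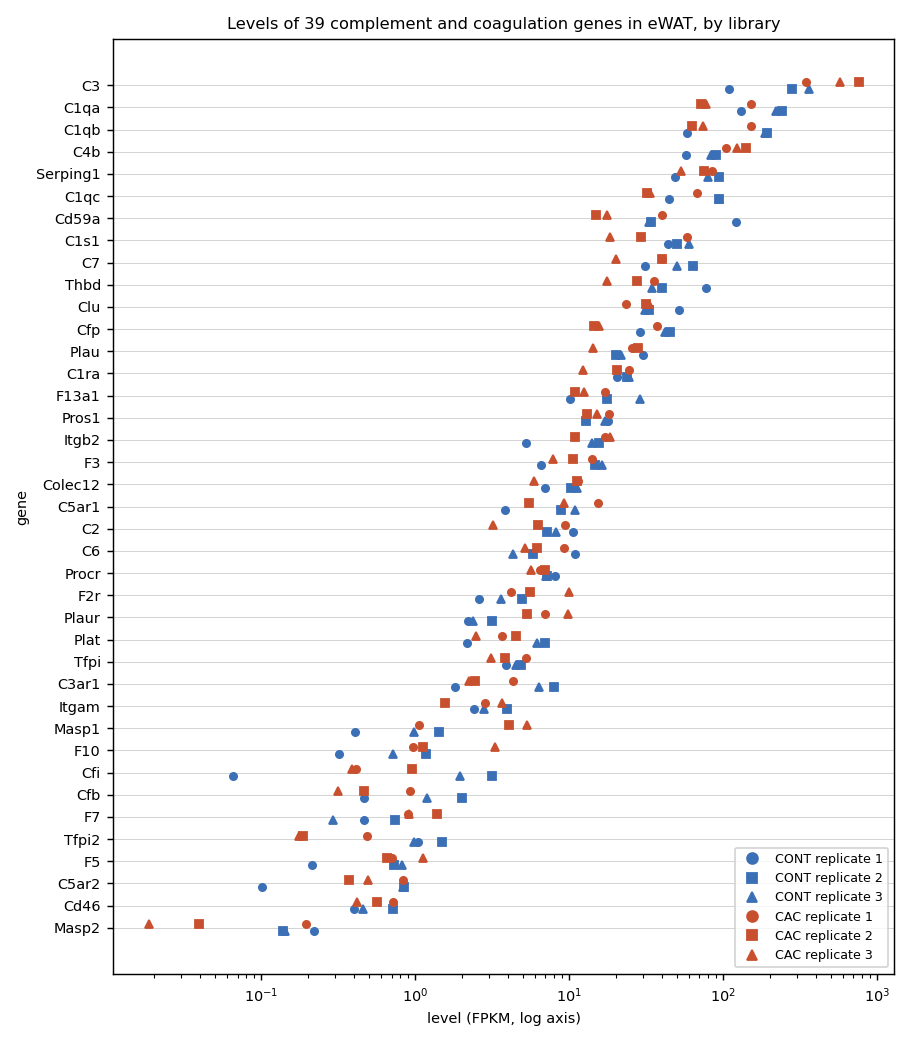
FPKM (x axis, log scale) of the 39 members tested (y axis, ordered by mean) in every library, with CONT in blue and CAC in red and replicates by symbol. Levels run from Masp2 at the bottom to C3 at the top, and for most genes the colors overlap.

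Among the 10 tested genes of classical and lectin recognition and their proteases, 2 were fitted higher in CAC and 8 lower (median log2 fold change -0.52), and Colec12 turned to higher with mitochondrial counts left out of library sizes or with DESeq2. C1q is built of the chains encoded by C1qa, C1qb and C1qc, which lie side by side on chromosome 4 (GRCm38), with 3616 bases between C1qb and C1qc and 2851 between C1qc and C1qa. C1qa was at 168, 313 and 285 CPM in CONT replicates 1 to 3 and at 191, 91.7 and 98.0 CPM in CAC replicates 1 to 3. CAC replicates 2 and 3 lay below every CONT library, and CAC replicate 1 lay between CONT replicates 1 and 3. Its log2 fold change was -1.01 ± 0.39 (SE), with an unadjusted p of 0.0371 and an adjusted p of 0.350 by edgeR. The unadjusted p rose to 0.105 to 0.131 without CONT replicate 2, CONT replicate 3, CAC replicate 2 or CAC replicate 3.

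C1qb was at 77.6, 262 and 254 CPM in CONT and 200, 83.7 and 97.9 CPM in CAC, a log2 fold change of -0.64 ± 0.54. C1qc was at 106, 226 and 226 CPM in CONT and 158, 76.5 and 79.1 CPM in CAC, with a log2 fold change of -0.83 ± 0.42. For all 3 chains CONT replicates 2 and 3 were highest and CAC replicates 2 and 3 lay well below them. CONT replicate 1 lay above CAC replicates 2 and 3 for C1qa and C1qc but was the lowest of all libraries for C1qb. The ratio of C1qa to C1qc counts was 1.26 to 1.59 in CONT and 1.20 to 1.24 in CAC, and that of C1qa to C1qb counts was 1.12 to 2.16 in CONT and 0.954 to 1.10 in CAC, so that both were lower in every CAC library, by gaps of only 1.24 to 1.26 and 1.10 to 1.12 (p = 0.1 each, exact two-sided permutation test; pairs picked after the values were seen). The 12 macrophage markers summed to 587, 1717 and 1823 CPM in CONT and 1581, 954 and 1111 CPM in CAC. Of these markers, 7 were fitted lower in CAC and 5 higher (median log2 fold change -0.38), with Cd209f lower and Cd14 and Mertk higher in all CAC libraries. Per count of Csf1r, the receptor for the macrophage growth factor CSF-1, C1qa stood at 1.11 to 2.71 in CONT and 0.956 to 1.22 in CAC, which overlap, and so did C1qa per count of Adgre1, the macrophage antigen F4/80. Per count of Lyz2 (lysozyme), C1qa was at 0.358 to 0.620 in CONT and 0.160 to 0.351 in CAC, which do not overlap. The gap was only 0.351 to 0.358 (p = 0.1, exact two-sided permutation test), and this pair was also picked after the values were seen. The part of macrophage content in the C1q values was not tested.

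C1s1 encodes the protease C1s. Its levels were 170, 197 and 232 CPM in CONT and 221, 113 and 71.1 CPM in CAC, with a log2 fold change of -0.56 ± 0.42, and CAC replicate 1 lay within the CONT range. The value was -1.06 without CAC replicate 1 and -0.25 without CAC replicate 3. Its neighbour C1ra (C1r), and C2 on chromosome 17, had log2 fold changes of -0.29 and -0.48 (-0.04 and -0.15 without CAC replicate 3), and Colec12, a membrane collectin, of -0.02. C4b, which encodes complement C4 and lies at 34728380 to 34743882 of chromosome 17 (minus strand), went the other way from C1q and C1s. It was at 399, 637 and 589 CPM in CONT and at 722, 990 and 855 CPM in CAC, so that every CAC library lay above every CONT library. The log2 fold change was 0.66 ± 0.29, with an unadjusted p of 0.0573 and an adjusted p of 0.389 by edgeR. Its near copy C4a had 15 to 34 counts per library, and reads shared between the copies could be assigned to either gene. The ratio of C4b to C1s1 counts was 2.35 to 3.23 in CONT and 3.26, 8.73 and 12.03 in CAC, with a gap between the groups of only 3.23 to 3.26 (p = 0.1 in an exact two-sided permutation test, which cannot go lower with 3 against 3; the pair was picked after the values were seen).

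Masp1, which encodes proteases of the lectin pathway, had the highest fitted fold change of the members. It was at 4.90, 17.5 and 12.1 CPM in CONT and at 12.7, 49.3 and 63.9 CPM in CAC. CAC replicates 2 and 3 were above every CONT library, while CAC replicate 1 lay within the CONT range. The log2 fold change was 1.86 ± 0.68, with an unadjusted p of 0.0314 and an adjusted p of 0.338 by edgeR, and it ranged from 1.44 without CAC replicate 3 to 2.36 without CAC replicate 1. The unadjusted p was 0.0821 to 0.0967 without CONT replicate 1, CONT replicate 3, CAC replicate 2 or CAC replicate 3. Masp2 had 61 reads in all 6 libraries and shares exon sequence with Tardbp on the opposite strand, which had 17363 reads, so its log2 fold change of -0.99 ± 0.87 is uncertain. Mbl2, a liver collectin, had 10 reads in CAC replicate 3, the library with the highest hepatocyte markers, and 0 in the other 5.

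**Figure D4:**
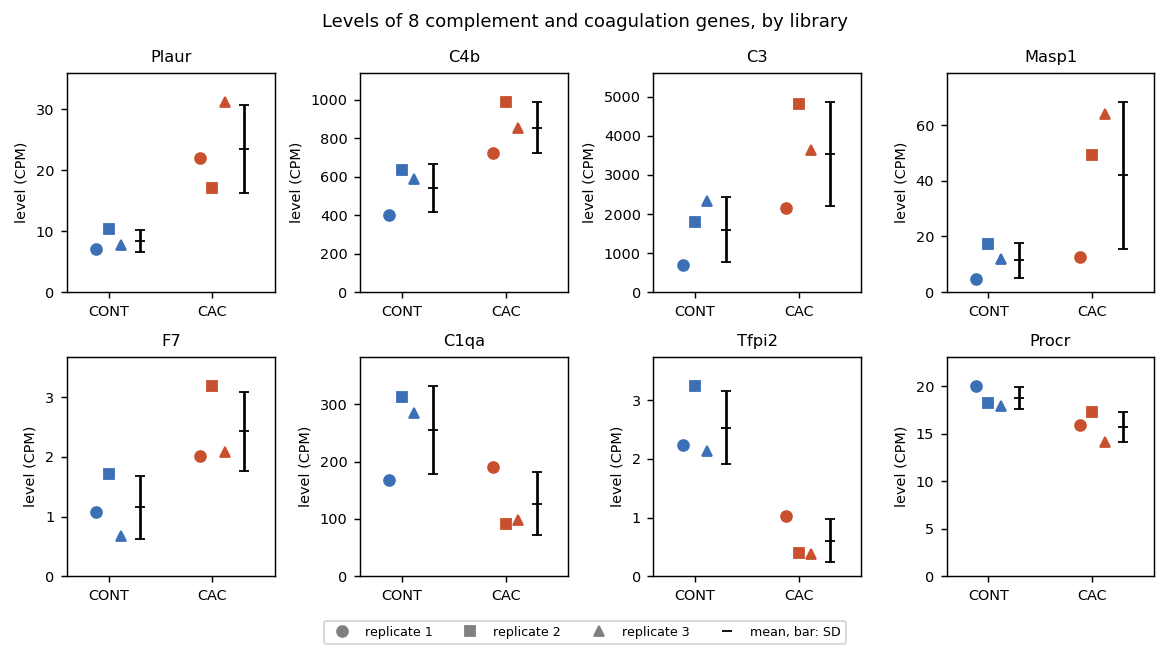
Level (y axis, CPM, from 0) of 8 members in the CONT (blue) and CAC (red) libraries, with replicates by symbol and the group mean and SD as a black bar. Plaur, C4b and F7 are higher in all CAC libraries and Tfpi2 and Procr lower in all, whereas for C3, Masp1 and C1qa CAC replicate 1 lies within the range of CONT.

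C3 was the only member of the central, alternative and terminal group fitted higher in CAC, and the other 4 genes tested were fitted lower. It was at 695, 1793 and 2324 CPM in CONT and at 2145, 4818 and 3632 CPM in CAC. The groups overlapped, since CAC replicate 1 lay below CONT replicate 3, and CAC replicates 2 and 3 lay above all CONT libraries. The log2 fold change was 1.14 ± 0.55, a fold of 2.20, with an unadjusted p of 0.0779 and an adjusted p of 0.421 by edgeR. C3 took 20.5%, 33.9% and 40.8% of all reads of the members in CONT replicates 1 to 3 and 40.5%, 63.7% and 60.1% in CAC replicates 1 to 3. The members together summed to 3395 to 5703 CPM in CONT and 5302 to 7565 CPM in CAC. Without C3 the sums were 2700 to 3488 CPM and 2415 to 3157 CPM, so that the group with the higher mean changed from CAC to CONT. Both pairs of ranges overlap.

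C3 and C1qa each overlapped between the groups, while their ratio did not. The ratio of C3 to C1qa counts was 4.14, 5.73 and 8.14 in CONT and 11.2, 52.5 and 37.1 in CAC, with every CAC library above every CONT library (p = 0.1, exact two-sided permutation test). The ratio of C3 to C3ar1, which encodes the receptor for the C3a fragment, was 42.1 to 72.1 in CONT and 94.6 to 370 in CAC. These ratios were picked after the values were seen. Of the remaining genes of the group, Cfb (factor B) had a log2 fold change of -1.14 ± 0.68, Cfp (properdin, which stabilizes the alternative pathway's convertase) of -0.81 ± 0.41, C7 of -0.55 ± 0.38 and C6 of -0.05 ± 0.39, a value that kept its sign in 9 of 19 alternatives. Cfb and C2 lie 85 bases apart on chromosome 17, and their fitted values were both below 0. Exons of C2 overlap Zbtb12 on the opposite strand, which had 1311 reads to the 4450 of C2.

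The 5 complement inhibitors and regulators had 1 gene fitted higher and 4 lower (median log2 fold change -0.42), and no member of this group had an unadjusted p under 0.05. Serping1, the C1 inhibitor, was at 140, 273 and 229 CPM in CONT and 237, 214 and 151 CPM in CAC, a log2 fold change of -0.09 ± 0.32 whose sign turned without CONT replicate 2 or CAC replicate 3. Cd59a, which blocks the membrane pore, was at 272, 77.0 and 74.2 CPM in CONT and 87.5, 33.5 and 39.1 CPM in CAC. CONT replicate 1, the library with the high mitochondrial share, was far above all others, and the log2 fold change of -1.40 ± 0.64 became -0.49 without it. Cd59b, a near copy, had 18 to 70 reads per library. Cfi (factor I) was the lowest fitted of the group at -1.61 ± 1.11, with 0.178 to 8.80 CPM in CONT and 1.06 to 2.58 CPM in CAC. The 5 genes summed to 632, 509 and 447 CPM in CONT and 430, 389 and 333 CPM in CAC, which do not overlap, but most of the CONT replicate 1 sum came from Cd59a and Clu.

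The 5 complement receptors overlapped between the groups, and none had an unadjusted p under 0.05. C3ar1 had a log2 fold change of -0.86 ± 0.56, with 9.63, 42.6 and 33.8 CPM in CONT and 22.7, 13.04 and 11.7 CPM in CAC. C5ar1, the main receptor for C5a, was fitted at 0.33 and its neighbour C5ar2 at -0.11. Itgam and Itgb2, the chains of complement receptor 3, which neutrophils and macrophages share, were fitted at -0.20 and 0.38. Single libraries decided these values: C5ar1 was at -0.05 without CAC replicate 1, C5ar2 at 0.23 without CONT replicate 3, Itgam at 0.09 without CAC replicate 2 and Itgb2 at 0.04 without CONT replicate 1. Beside them, 7 of 8 neutrophil markers did not overlap between the groups, with log2 fold changes of 1.22 to 5.61, and their part in the receptors' values was not tested.

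In the coagulation group, 4 genes were fitted higher in CAC and 2 lower (median log2 fold change 0.63). F7, the plasma partner of tissue factor, was at 1.07, 1.71 and 0.678 CPM in CONT and 2.01, 3.19 and 2.08 CPM in CAC, from 12, 39 and 15 reads and 49, 79 and 55 reads. All CAC libraries were above all CONT libraries, with a log2 fold change of 1.07 ± 0.51, an unadjusted p of 0.0764 and an adjusted p of 0.419 by edgeR. F10 lies 1498 bases beyond F7 on chromosome 8. It was at 1.07, 4.03 and 2.44 CPM in CONT and 3.20, 3.79 and 10.99 CPM in CAC. Its log2 fold change of 1.24 ± 0.69 became 0.48 without CAC replicate 3, the library with the highest hepatocyte markers. In that library F7 was at 2.08 CPM, and the part of hepatocyte RNA in the F7 and F10 values was not tested.

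F2r, the thrombin receptor PAR1, had a log2 fold change of 0.80 ± 0.40, which became 0.37 without CAC replicate 3. F5 (factor V) was fitted at 0.47 ± 0.55, and at 0.08 without CONT replicate 1. F3, which encodes tissue factor, was fitted at -0.23 ± 0.39, with 20.3 to 51.3 CPM in CONT and 24.4 to 43.0 CPM in CAC, and at 0.02 without CONT replicate 3 and -0.53 without CONT replicate 1. F13a1, the clot-stabilizing transglutaminase that tissue macrophages make, was fitted at -0.50 ± 0.40, and at -0.04 without CONT replicate 3. Its CONT libraries spanned 83.4 to 240 CPM and its CAC libraries 91.0 to 139 CPM.

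All 5 tested genes of the group listed as anticoagulants were fitted lower in CAC (median log2 fold change -0.25), as were 9353 of 17296 genes tested. Tfpi2, a Kunitz-type inhibitor of plasmin and other serine proteases, lies at 3962595 to 3988919 of chromosome 6 (minus strand). It was at 2.23, 3.24 and 2.12 CPM in CONT and 1.03, 0.404 and 0.378 CPM in CAC, from 25, 74 and 47 reads and 25, 10 and 10 reads. Every CAC library lay below every CONT library. The log2 fold change was -2.06 ± 0.57, with an unadjusted p of 0.00905 and an adjusted p of 0.269 by edgeR and an adjusted p of 0.0380 by DESeq2. Over the alternatives its adjusted p ran from 0.00052 to 0.688 and its direction held in all 19, while its unadjusted p was 0.0539 without CAC replicate 2.

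Procr, the endothelial receptor of protein C, was at 20.1, 18.3 and 17.9 CPM in CONT and 15.9, 17.3 and 14.1 CPM in CAC. The groups did not overlap, with a gap of only 17.3 to 17.9 CPM, and the log2 fold change was -0.25 ± 0.20. Without CAC replicate 1, and the rescaling that went with it, they overlapped. Thbd (thrombomodulin, which turns thrombin toward protein C) had a log2 fold change of -0.92 ± 0.40, and -0.48 without CONT replicate 1, where it reached 352 CPM against 80.3 to 188 CPM in the other libraries. The sum of endothelial markers was also highest in CONT replicate 1, at 3443 CPM against 1576 to 2559 CPM elsewhere. Cdh5, Tie1, Egfl7, Esam, Emcn and Cldn5 were highest there, whereas Pecam1, Kdr and Tek were higher in a CAC library. Vwf was lowest there, and the part of endothelial content in the Thbd value was not tested. Pros1 (protein S) was fitted at -0.06 and Tfpi, the inhibitor of tissue factor with factor VII, at -0.14, and the sign of both turned when some single libraries were left out. A2m, a liver protease inhibitor, had 6 reads in CONT replicate 2, 10 in CAC replicate 3 and 0 in the other libraries, and was not tested.

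Plaur encodes the urokinase receptor, which holds urokinase on the cell surface, and lies at 24462484 to 24475968 of chromosome 7 (plus strand). It was at 7.13, 10.4 and 7.68 CPM in CONT and 22.1, 17.2 and 31.3 CPM in CAC. The lowest CAC library was above the highest CONT library, and CAC replicate 1, which lay near CONT for C3 and Masp1, was among the high libraries here. The log2 fold change was 1.48 ± 0.31, a fold of 2.79, with an unadjusted p of 0.00225 and an adjusted p of 0.226 by edgeR and an adjusted p of 0.00103 by DESeq2. Over the alternatives its adjusted p ran from 0.00103 to 0.684, and it stood at rank 171 of all genes tested by p. Its fold change stayed between 1.23 and 1.68 (log2) with each library left out.

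The ligand of that receptor was not fitted higher: Plau, urokinase, had a log2 fold change of -0.10 ± 0.30, with a sign that turned without CONT replicate 1 or CAC replicate 3, and Plat, the tissue plasminogen activator, of -0.54 ± 0.46. The ratio of Plaur to Plau counts was 0.0813 to 0.174 in CONT and 0.212 to 0.751 in CAC, which do not overlap. Plaur is also found on neutrophils and monocytes, and Cxcr2, a neutrophil chemokine receptor, was at 0.178 to 1.94 CPM in CONT and 10.02 to 24.6 CPM in CAC. Per count of Cxcr2, Plaur was at 3.95 to 40.0 in CONT and 1.27 to 2.20 in CAC, and the 40.0, in CONT replicate 1, rested on 2 reads of Cxcr2. Per count of Itgb2, Plaur was at 0.145 to 0.364 in CONT and 0.352 to 0.454 in CAC, which overlap. Of the 12 macrophage markers, Cd14 and Mertk were higher in all CAC libraries, with log2 fold changes of 1.19 and 1.37, and Cd209f was lower in all, at -3.26, while the other 9 overlapped. How much of the Plaur difference these cells carry was not tested.

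With each library left out in turn, the counts of members depended on CAC replicate 1 and CONT replicate 1. Without CAC replicate 1, 19 of 39 members (48.7%) did not overlap, 7 higher and 12 lower, where 33.4% of all genes did not, and 12 members (30.8%) had an unadjusted p under 0.05, where 11.7% of genes did. Procr no longer stood apart, C3, Masp1, F10 and F2r joined the higher genes, and the lower ones included C1qa, C1qc, C1s1, Cfp and Thbd. Without CONT replicate 1, 17 members (43.6%) did not overlap, 3 higher and 14 lower, against 37.7% of all genes. With 2 libraries in a group, non-overlap is reached more easily, and leaving out any of the other 4 libraries gave 5 to 8 members. There were 8 without CONT replicate 2 (28.6% of genes) or CONT replicate 3 (28.5%), 6 without CAC replicate 2 (26.6%) and 5 without CAC replicate 3 (30.2%). Unadjusted p under 0.05 was met by 8 members without CONT replicate 1 (15.6% of genes), 4 without CONT replicate 2 (9.3%) and 3 without CONT replicate 3 (9.25%). It was met by 1 member without CAC replicate 2 (7.24%) and by 2 without CAC replicate 3 (8.32%). Without CONT replicate 2 the log2 fold changes of C1qb, Cfb, Cfi, C3ar1 and Plat moved to -0.38, -0.56, -0.84, -0.46 and -0.25. Without CAC replicate 3 those of C7 and Masp2 moved to -0.29 and -0.51. The same genes moved the other way with other libraries left out. C1qb, Cfb and Masp2 were at -1.06, -1.59 and -2.43 without CAC replicate 1. Cfi, C3ar1, Plat and C7 were at -2.15, -1.26, -0.89 and -0.78 without CONT replicate 1.

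**Figure D5:**
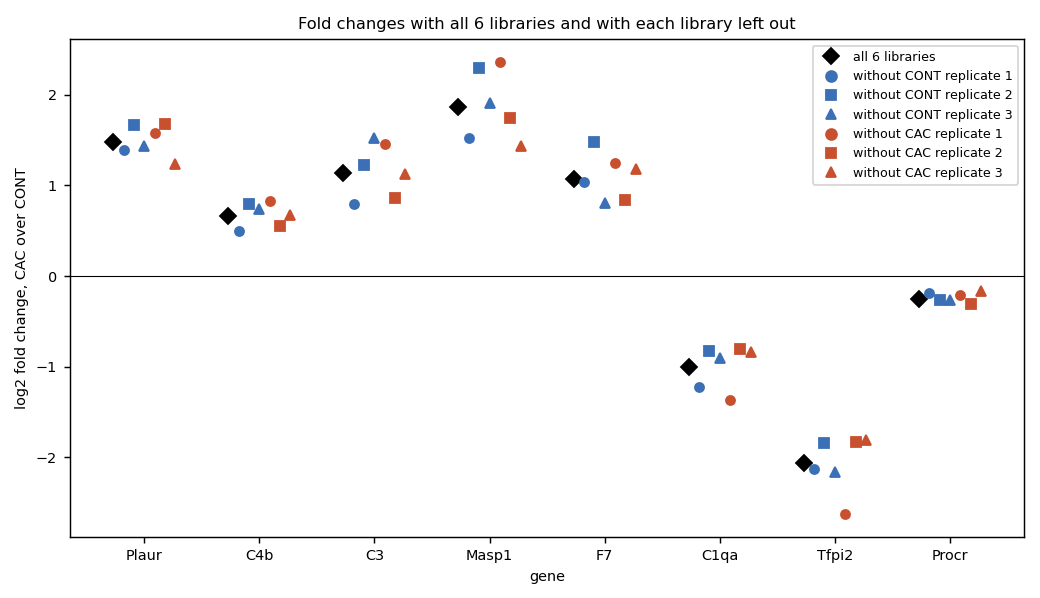
Log2 fold change of CAC over CONT (y axis) for 8 members (x axis), with all 6 libraries (black diamonds) and with each library left out (blue for CONT, red for CAC, replicates by symbol). All values of a gene stay on the same side of 0, and those of C3, Masp1, C1qa and Tfpi2 lie farther from 0 without CAC replicate 1 than with all libraries.

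Another 77 genes of these systems were examined beside the members. Of these, 76 were in the tables and 45 passed the filter on low counts. No adjusted p was under 0.05 among them, 8 (17.8%) had an unadjusted p under 0.05, 1 higher and 7 lower, beside 13.3% of all genes, and 10 (22.2%) did not overlap, 4 higher and 6 lower, which is close to the 22.5% of all genes. Cfd, the adipocyte protease factor D (adipsin), had 147337 to 199821 reads in CONT and 353497 to 587509 in CAC, but in CPM the groups overlapped, with a log2 fold change of 0.83 ± 0.54.

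Vwf, the platelet-binding protein of endothelium, was at 71.3, 216 and 179 CPM in CONT and 245, 398 and 303 CPM in CAC, with a log2 fold change of 1.02 ± 0.44. Anxa2, a plasminogen receptor of the cell surface, was at 989, 528 and 517 CPM in CONT and 359, 84.1 and 113 CPM in CAC, with a log2 fold change of -1.87 ± 0.62 and an unadjusted p of 0.0212 by edgeR. Serpine2 (protease nexin-1) was at 116, 51.9 and 47.2 CPM in CONT and 38.8, 31.2 and 25.3 CPM in CAC, with a log2 fold change of -1.17 ± 0.39. For both, no CAC library reached the CONT range. Fibroblast and progenitor markers summed to 2301 to 2722 CPM in CONT and 1438 to 2218 CPM in CAC. Of these 10 markers, 5 were lower in all CAC libraries, Dcn (decorin) was higher in all and 4 overlapped, and their part in these values was not tested.

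Other genes of the list rested on a few libraries. Susd4, a complement regulator, had 32, 487 and 774 reads in CONT and 36, 82 and 23 reads in CAC, with a log2 fold change of -3.39 ± 0.96 and an unadjusted p of 0.0107 by edgeR, although CONT replicate 1 lay within the CAC range of CPM. C4bp, the C4b-binding protein, had 2746 of its reads in CONT replicate 3, the library with the highest epididymis markers. A set of 14 liver-made genes on the list summed to 0.739 to 4.37 CPM in 5 libraries and to 29.6 CPM in CAC replicate 3. Hc, which encodes C5, had 30 reads in CAC replicate 3 and at most 4 elsewhere, and Plg, plasminogen, had 39 in CAC replicate 3 and at most 1 elsewhere. Of 74 genes of the list with at least 10 reads, 21 had over 50% of their reads in CAC replicate 3, as did Mbl2 and A2m among the members.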

How the data were processed

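Poly(A) mRNA of eWAT from 3 CONT and 3 CAC mice was sequenced on an Illumina instrument. The authors aligned reads to the Ensembl mouse genome (GRCm38) with HISAT2 2.0.5. The processing notes name featureCounts 1.5.0-p3. The authors deposited whole-number counts per gene, not normalized, and FPKM. Whether strand was used in counting is not given in the sources used here. Samples were grouped by their labels.

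Counts were fitted in R 4.3.3 with edgeR 4.0.16: TMM factors, edgeR's filter by group, robust quasi-likelihood test on condition, and Benjamini-Hochberg adjustment over all 17296 genes that passed. DESeq2 1.42.0 and limma 3.58.1 (voom with sample quality weights, and FPKM with a pseudocount of 1 or 0.1 over genes with at least 0.5 FPKM in at least 3 libraries) were alternatives. Groups were said not to overlap where all libraries of a group exceeded all of the other in CPM. The exact permutation test cannot go below 0.1. Scripts were tested on simulated data. No 2 libraries agreed within sampling noise.

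The members and lists were chosen with earlier results of these data known. Values per library are given for members with an unadjusted p under 0.05 or groups apart and for the 8 highest in FPKM. Named from the other genes were Cfd, Hc, Vwf, Plg and those among the 5 with the smallest p, except that some genes the rule would name are not reported here. Any further member or marker with values per library was chosen after its values were seen. Depth covers counting error only, and the spread between mice was larger, with a common dispersion of 0.266.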

Additional observations from a re-analysis of the deposited data

How the results depend on the processing

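edgeR's quasi-likelihood test gave 4 of 39 members an unadjusted p under 0.05. The count was 7 without a filter on low counts (2608 of 34214 genes in all), 8 by DESeq2 (3230 of 34214), 21 by voom with sample quality weights (4884 of 17296) and 1 to 12 with each library left out, and the count not overlapping, 5, became 5 to 19. An adjusted p under 0.05, met by 0, was met by 2 in DESeq2, 4 in voom (C1qa, C1qc, Cfp and Tfpi2), and, in fits added after seeing the data, 5, 1 and 7 in DESeq2 without CONT replicate 1, CAC replicate 3 or CAC replicate 1. The other complement and coagulation genes gave 8 unadjusted (voom 19, libraries left out 2 to 11), 10 not overlapping (6 with FPKM and either pseudocount, libraries left out 13 to 20) and 0 adjusted (DESeq2 2, voom 4, and 3, 2 and 5 in those DESeq2 fits). Over all genes the adjusted count was 0 by edgeR, 917 by DESeq2, 953 by voom, 5 and 6 with FPKM plus 1 and plus 0.1, and 2123, 615 and 1506 in those DESeq2 fits. The unadjusted count, 2294, was 1384 to 3032 with libraries left out, and the count not overlapping, 3883, became 5079 to 7337. The cause of these shifts was not tested. Serping1 (-0.31 to 0.12 with each library left out) turned from -0.09 to 0.12 without CONT replicate 2 and 0.08 without CAC replicate 3 (0.12 by DESeq2), far within its SE. Of the 13 members that the rule chose for values per library, Serping1 was the only one to change sign under these alternatives. Depth limits F7, Tfpi2 and Masp2 most.

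Whether replicate numbers pair the mice cannot be told with 3 mice per group. Deviations of same-numbered libraries correlated at 0.306, -0.151 and -0.218, and those of libraries with different numbers at -0.442 to 0.473. With the replicate number as a block, 6 members and 13 of the other complement and coagulation genes had an unadjusted p under 0.05, beside 1992 of all 17296 genes, and 1 gene of all had an adjusted p under 0.05.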
